A study of Homo sapiens with 42 samples.

Results

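The MYC locus at 8q24 and the MYC network were followed through the chromatin accessibility (ATAC-seq) tables of 4 human lung adenocarcinoma cell lines that carry activating EGFR mutations, PC9, H1975, HCC827 and HCC2935. A region belonged to the set when the authors had assigned it to MYC, CASC11, PVT1, CASC8 or CASC19 (the 8q24 genes) or to MYCL, MYCN, MAX, MXD1 or MXI1 (the network genes). This gave 722 regions of 242490 annotated regions in the 4 tables, each 502 bases wide. PC9 had 70, HCC827 66 and HCC2935 45, while H1975 had 541. All 722 passed the filter on low counts. The genes were selected on measured values of these tables. These were the shift of 8q24 with AZD5153 alone in H1975, its difference from the effect in DTP cells, and the HCC827 comparison of DTP with control. The 8q24 values in those comparisons are therefore descriptions, and counts past the threshold there are no evidence of a change. H1975 had 520 regions of the 8q24 genes, HCC827 57, PC9 51 and HCC2935 24, and MYCN had its 2 regions in HCC2935 only.

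Control cells were grown drug-free for 21 days and then given DMSO, the solvent, for 3 days. DTP cells (drug-tolerant persisters) were kept in 500 nM osimertinib, an inhibitor of mutant EGFR, for 24 days. Combo cells were given AZD5153 at 150 nM for 3 days once 21 days of osimertinib had passed, and whether osimertinib stayed in the medium is not stated. In comparisons of combo with DTP, an effect of AZD5153 therefore cannot be told apart from one of osimertinib withdrawal. AZD5153 is a BET inhibitor. A group given AZD5153 for 3 days after 21 drug-free days existed for PC9 and H1975. Each of the 14 groups had 3 libraries, labelled as biological replicates, which makes 42 libraries. The protocol text of the labels describes an H3K27ac ChIP, while titles and design name ATAC-seq, and the values are treated here as ATAC-seq.

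MYC is a basic helix-loop-helix leucine zipper transcription factor that binds DNA as a dimer with MAX and drives growth, ribosome production and metabolism. MYCN and MYCL are its paralogs, and MXD1 and MXI1 are repressors that compete with them for MAX. MYC sits in a gene-poor stretch whose enhancers, many within the long noncoding RNA genes around it, act on it over long distances, and the locus is often amplified in carcinomas. BET inhibitors are widely known for lowering MYC transcription in blood cancers. An ATAC-seq region counts transposase cuts in open chromatin, so its value speaks of a regulatory site and not of the gene's RNA.

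The sequences just upstream of 3 network genes are shown because regions at or just upstream of their starts carry network results described further on. They are the 250 bases before the RefSeq start (GRCh38.p14), with the GC box GGGCGG or its reverse complement CCGCCC in capitals, and all 3 genes lie on the plus strand: MYCN at chr2:15940300-15940549, MXD1 at chr2:69914859-69915108 and MXI1 at chr10:110207355-110207604.
MYCN: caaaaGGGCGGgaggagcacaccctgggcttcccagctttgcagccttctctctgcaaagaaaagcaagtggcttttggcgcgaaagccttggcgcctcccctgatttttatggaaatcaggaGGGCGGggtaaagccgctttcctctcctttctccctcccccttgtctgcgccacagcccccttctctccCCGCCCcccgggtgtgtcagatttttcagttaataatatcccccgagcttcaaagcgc
MXD1: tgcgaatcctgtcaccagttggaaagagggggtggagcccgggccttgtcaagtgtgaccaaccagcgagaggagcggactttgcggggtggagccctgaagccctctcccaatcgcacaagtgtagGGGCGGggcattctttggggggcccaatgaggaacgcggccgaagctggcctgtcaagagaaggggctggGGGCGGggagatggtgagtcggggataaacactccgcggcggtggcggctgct
MXI1: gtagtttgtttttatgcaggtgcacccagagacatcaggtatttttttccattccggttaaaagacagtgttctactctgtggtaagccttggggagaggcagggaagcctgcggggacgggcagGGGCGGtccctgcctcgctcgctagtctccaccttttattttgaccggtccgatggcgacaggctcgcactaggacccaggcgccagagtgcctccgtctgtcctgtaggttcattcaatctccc
They hold 3, 2 and 1 GC boxes respectively, counted on both strands, and a GC box was found in 42.6% of 35116 RefSeq promoter windows of this length. None of the 3 holds the E-box CACGTG, the sequence that MYC-MAX dimers prefer and that 6.34% of those windows hold. The accessible region at the start covered all 250 bases of MXI1 in the 4 lines and of MYCN in HCC2935, while the MXD1 start region covered 64 to 94 of them in PC9, H1975 and HCC827 and none in HCC2935, where it began downstream.

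Counts in regions summed to 3989287 to 5193390 per PC9 library and 6200672 to 10062505 per H1975 library, with 1724680 to 4242868 for HCC827 and 3968690 to 8066287 for HCC2935. Levels are given as CPM, counts relative to library sizes that were scaled by TMM within a line, and differences as log2 fold changes ± SE from edgeR's quasi-likelihood test, called at an adjusted p under 0.05. Libraries of 1 group hardly varied beyond counting noise in PC9 (variance ratio 0.959 to 1.04) and H1975 (0.966 to 1.22), and more in HCC2935 (1.18 to 1.83) and HCC827 (1.21 to 8.76). A summed test, which adds up each group's libraries to 1 sample and borrows the HCC2935 dispersion, is therefore printed beside many small changes of member regions in PC9 and H1975. Changes in the gene lists further on are given without it. Same-numbered HCC827 libraries also deviated together, and HCC827 values come from a fit without that pairing unless a replicate block is named. Accessible start regions were annotated for 8 of 8 epithelial marker genes in each line, for at most 1 of 5 leukocyte genes and for at most 3 of 5 fibroblast and endothelial genes. Counts at a locus scale with its DNA copies as well as with the accessibility of each copy, and in bulk samples fewer cells with an open site and a less open site per cell give the same value, so that none of these can be told apart here.

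The MYC start region (chr8, 127735027 to 127735528 in PC9), which spans the promoter, was open in PC9, H1975 and HCC827 controls and low in HCC2935. Its control values were 39.1, 32.7 and 34.2 CPM in PC9, 32.5, 35.5 and 30.9 in H1975 and 39.9, 38.2 and 52.7 in HCC827. In HCC2935 they were 1.97, 1.77 and 2.50 CPM, the lowest of the 4 lines, and the authors' peak caller found a peak there in 4 of 9 HCC2935 libraries against 12 of 12, 12 of 12 and 9 of 9 in the others. The tables were normalised separately, so the order of the lines was not tested.

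With osimertinib the MYC start region rose in H1975 and was not called in the other lines. In PC9 the DTP values were 30.4, 31.7 and 32.5 CPM, all below the 3 controls, a difference of -0.15 ± 0.10 (adjusted p = 0.268). In H1975 they were 93.4, 83.2 and 88.0 CPM, far above every control, and the rise was 1.42 ± 0.07 (adjusted p = 1.95e-51, summed test 2.95e-09), or 1.15 relative to the other regions of a 15 Mb window around the locus. Regions of other symbols from 127.1 to 128.3 Mb, the nearest part of that window, had a median of 0.58. In HCC827 the DTP values were 37.3, 39.4 and 27.0 CPM and overlapped the controls, with a difference of -0.35 ± 0.29. HCC2935 gave 3.04, 2.65 and 2.67 CPM, each above each control, with a difference of 0.43 ± 0.37 (adjusted p = 0.376).

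From DTP to combo the MYC start region rose in H1975 and HCC2935. H1975 combo libraries had 124, 134 and 120 CPM, above every DTP library, a rise of 0.52 ± 0.05 (adjusted p = 1.36e-15) that the summed test did not call (adjusted p = 0.125). HCC2935 combo libraries had 4.65, 6.49 and 5.23 CPM, also above every DTP library, a rise of 0.98 ± 0.28 (adjusted p = 0.018) that was lost in 3 of the fits leaving out 1 library and in DESeq2 (adjusted p = 0.134). PC9 combo libraries had 31.9, 34.7 and 30.9 CPM and HCC827 combo libraries 30.0, 39.3 and 34.5, both overlapping their DTP libraries, with differences of 0.04 ± 0.10 and 0.01 ± 0.29. Given alone, AZD5153 left PC9 at 32.5, 32.9 and 32.1 CPM, a difference of -0.11 ± 0.10 (adjusted p = 0.48), while H1975 reached 193, 210 and 192 CPM. The H1975 value is a description, since the 8q24 genes were chosen with the shift of that locus under AZD5153 known.

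**Figure D1:**
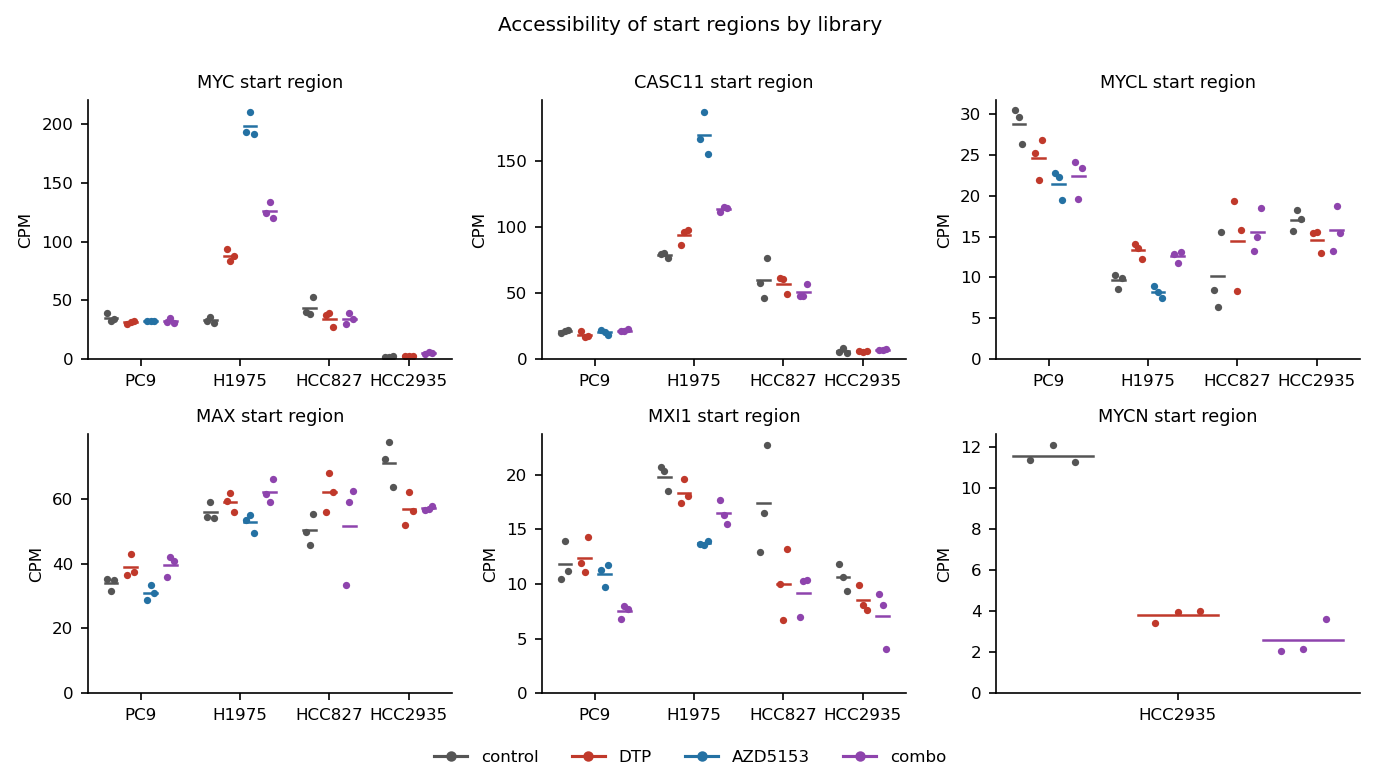
CPM of the start regions of MYC, CASC11, MYCL, MAX, MXI1 and MYCN in each library (points) with the group mean (bar), by line and treatment; MYCN had regions in HCC2935 only. The MYC panel has the 3 AZD5153 libraries of H1975 at 192 to 210 CPM, and the MYCN panel has the 3 HCC2935 controls above all 6 treated libraries.

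The regions assigned to MYC just inside the gene moved more than the start region in PC9. The PC9 region 1.1 kb from the gene start had 5.40, 6.85 and 7.94 CPM in controls, 10.9, 10.8 and 8.01 in DTP, 13.9, 14.1 and 13.6 with AZD5153 alone and 14.1, 14.6 and 15.5 in combo. The first 3 of these groups did not overlap, and the rise was 0.54 ± 0.21 in DTP (summed test adjusted p = 0.215) and 1.02 ± 0.19 with AZD5153 alone (summed test adjusted p = 0.00408). The rise in DTP was also lost on leaving out either of the controls 1 and 2 or of the DTP libraries 1 and 2. The region 2.3 kb from the start rose with osimertinib by 0.66 ± 0.20 in PC9 (adjusted p = 0.00618, summed test 0.0995, DESeq2 0.0564) and by 0.91 ± 0.07 in H1975, and the matched regions of HCC827 and HCC2935 had values of 0.27 ± 0.36 and 0.65 ± 0.33 that were not called. All 4 MYC regions of H1975 rose from DTP to combo, by 0.41 to 0.52, and none of the 4 was called by the summed test.

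In H1975 the chromatin around MYC shifted over a long stretch. From 127.1 to 128.3 Mb on chromosome 8 the table held 106 tested regions per 100 kb against 7.01 in the rest of the window, and this dense stretch of 1267 regions held all 520 of the line's 8q24 members together with 747 regions of other symbols. HCC827 had a dense stretch of 408 regions at 45.3 per 100 kb, with 11.7 outside it, and PC9 and HCC2935 had none of this kind. The H1975 stretch took 0.617 to 0.643% of the counts of a control library, 0.717 to 0.795% in DTP, 0.722 to 0.806% in combo and 1.42 to 1.60% with AZD5153 alone.

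**Figure D2:**
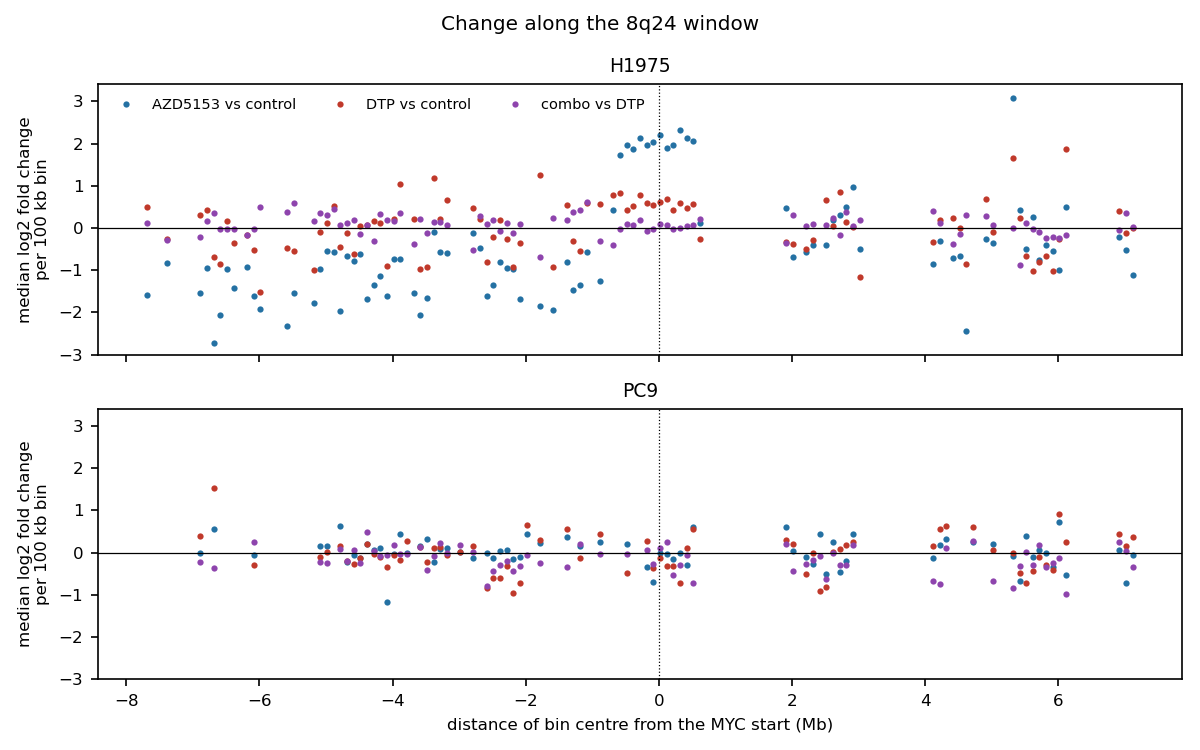
Median log2 fold change of the tested regions in 100 kb bins with at least 5 regions, against distance of the bin from the MYC start, in H1975 and PC9. In H1975 the bins of the dense stretch around MYC step up with AZD5153 alone, where the median was 2.05 inside the stretch and -0.91 outside it; PC9 shows no such step.

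The median change of the stretch in H1975 was 0.56 in DTP cells, against -0.10 in the rest of the window, and 0.04 from DTP to combo, against 0.05. With AZD5153 alone it was 2.05 inside against -0.91 outside, where regions toward the centromere stood at -1.22 and those toward the telomere at -0.40. Regions of other symbols inside the stretch had a median of 2.03, beside 2.07 for the 8q24 members. Peaks were most frequent with AZD5153 alone, the authors' caller covering 56.0 to 67.9% of the 520 regions in control libraries, 79.6 to 92.9% in DTP, 81.7 to 88.3% in combo and 99.8 to 100% with AZD5153. The regions may themselves rest on peaks of these libraries, so this coverage and the density of the stretch are no separate evidence of the shift. Because the stretch shifted as a whole, H1975 counts are also given with its own medians removed, a setting chosen after seeing the data.

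In DTP cells against controls, 8q24 members were called in both directions in 3 lines. PC9 had 12 higher and 19 lower of 51, with 31.7% of all tested PC9 regions called, and a median of -0.18, or -0.15 relative to the window (-0.000758 with a narrower window of 5 Mb). The PC9 counts were 4 higher and 19 lower under the summed test, with 19.4% of all regions called, and the same in DESeq2, with 19.9% called. H1975 had 222 higher and 47 lower of 520, with 51.9% of all regions called, and a median of 0.53, or 0.26 relative to the window (0.0777 with the narrower one). With the medians of the dense stretch removed the H1975 counts became 89 higher and 90 lower, with 51.8% of all regions called. The DTP and AZD5153 comparisons of a line share their controls. HCC2935 had 3 higher and 7 lower of 24, with 37.3% of all regions called, and a median of -0.02. That is -0.45 relative to a window that stood at 0.43. With regional medians removed it had 2 higher and 9 lower, with 31.9% of all regions called. That setting took the 15 Mb window as 1 bin and used 10 Mb bins elsewhere. In HCC827, where the 8q24 values are a description because the locus was chosen with this comparison in view, 1 of 57 was lower, with 0.0219% of all regions called, and blocking on the replicate number gave 10 lower, with 3.88% called.

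By gene, PVT1 and CASC11 held most of the falls in PC9. PVT1 had 5 higher and 11 lower of 27, CASC11 3 higher and 6 lower of 15, CASC19 2 lower of 2 and CASC8 2 higher of 3. MYC itself had 2 higher and none lower of 4, and none was called by the summed test or DESeq2. An intronic PVT1 region 341.5 kb from MYC went from 38.4, 33.2 and 35.7 CPM in PC9 controls to 9.23, 10.8 and 11.8 in DTP, with no overlap. It changed by -1.75 ± 0.13 in PC9 and by -0.64 ± 0.05 in H1975, while HCC2935 had 0.99 ± 0.44, which was not called. A region assigned to CASC11, 7.7 kb from the MYC start and overlapping the 3′ end of MYC, went from 24.8, 24.1 and 21.1 CPM to 5.59, 6.45 and 6.76 in PC9 DTP cells, a change of -1.89 ± 0.17 (adjusted p = 4.31e-24).

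H1975 had larger single changes. A CASC19 intronic region at -520.0 kb from MYC, on the centromeric side, stood at 36.6, 34.7 and 30.2 CPM in controls and at 1.92, 1.02 and 2.80 in DTP, a change of -4.13 ± 0.15 (adjusted p = 5.46e-72). A PC9 region at -520.3 kb had 11.8, 7.86 and 9.67 CPM in controls, 4.37, 2.06 and 2.50 in DTP and 9.51, 6.89 and 10.7 in combo, and it changed by -1.67 ± 0.26 and then by 1.58 ± 0.26. An intronic PVT1 region of H1975 at 142.6 kb fell from 121, 114 and 113 CPM to 13.1, 11.5 and 12.5, a change of -3.23 ± 0.08. Adjacent PVT1 regions at 257.4 and 258.0 kb rose by 2.73 ± 0.15 and 2.74 ± 0.24, the former from 3.56, 2.82 and 3.64 CPM to 21.5, 20.2 and 24.9. These 4 H1975 changes were also called under the summed test and with the stretch medians removed.

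The step from DTP to combo holds the addition of AZD5153 to persister cells and any withdrawal of osimertinib. In that step PC9 had 14 higher and 10 lower of 51, with 22.3% of all regions called, H1975 53 higher and 39 lower of 520, with 21.0% called, and HCC2935 1 higher and 4 lower of 24, with 8.31% called. HCC827 had none of 57, and none of its 82309 tested regions was called by edgeR or DESeq2 (25 with the replicate block, 0.0304%, none of them a member), while 3 of its 66 members had an unadjusted p under 0.05 in edgeR. Under the summed test PC9 had 4 higher and 7 lower, with 8.11% of all regions called, and H1975 9 higher and 8 lower, with 5.97% called. With the stretch medians removed H1975 had 45 higher and 49 lower, with 21.0% of all regions called. The medians relative to the window were 0.23 in PC9 and -0.04 in H1975, with -0.21 for HCC827 and 0.09 for HCC2935. Leaving out 1 library moved the HCC827 value from -0.92 to 0.19, above 0 without DTP replicate 3 or combo replicate 1, and the H1975 value to 0.0463 without DTP replicate 1. With regional medians removed HCC2935 had 3 higher and 3 lower, with 8.47% of all regions called.

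The lowest H1975 change from DTP to combo was at an internal PVT1 promoter at 259.6 kb, from 68.7, 68.8 and 69.9 CPM to 25.1, 26.4 and 22.7, a change of -1.49 ± 0.07. Its controls stood at 104, 98.3 and 85.1 CPM and the libraries with AZD5153 alone at 8.90, 9.93 and 10.5, below every other group, while the median of the stretch around it was above 0. A CASC11-assigned region 8.4 kb from the MYC start rose from 7.04, 7.71 and 4.59 CPM to 14.4, 12.5 and 14.2, by 1.09 ± 0.14. In PC9 the PVT1 intronic region at 96.3 kb went from 8.51, 7.99 and 6.26 CPM to 1.46, 2.65 and 2.40, a change of -1.80 ± 0.29, and an internal PVT1 promoter at 124.0 kb rose from 7.78, 11.3 and 7.26 to 16.1, 18.0 and 17.05, by 0.96 ± 0.17. In HCC2935 a CASC8 region at -171.9 kb went from 6.84, 4.80 and 6.49 CPM to 2.79, 2.74 and 2.62, a change of -1.14 ± 0.28 that was lost without DTP replicate 1.

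AZD5153 alone was tested in PC9, where 8 of 51 8q24 members were higher and 15 lower, with 25.8% of all regions called. With regional medians removed 10 were higher and 12 lower, with 25.7% called. CASC11 regions had 7 lower and none higher of 15, and MYC regions 2 higher and none lower of 4. An intronic PVT1 region at 353.3 kb went from 11.4, 10.9 and 12.6 CPM to 1.68, 2.09 and 3.75, a change of -2.21 ± 0.25 that the summed test also called (adjusted p = 6.80e-09). It had 7.53, 12.4 and 8.76 CPM in DTP and 6.83, 10.6 and 5.86 in combo, a difference of -0.30 ± 0.20. The difference of effects, the step from DTP to combo minus the effect of AZD5153 in untreated cells, was also tested in PC9. It was called for 11 8q24 members in the higher and 5 in the lower direction, with 13.8% of all regions called. Under the summed test it was called for 3 in each direction, with 4.81% called.

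For H1975 the same comparisons are descriptions. With AZD5153 alone 490 of 520 8q24 members were past the threshold upward and 15 downward, with 58.1% of all regions called, and the difference of effects was past it downward for 480 and upward for 15, with 42.5% called. With the medians of the dense stretch removed the numbers became 177 up and 90 down for AZD5153 alone, with 57.7% of all regions called, and 78 up and 110 down for the difference of effects, with 42.1% called. A region assigned to CASC11, 6.3 kb from the MYC start and within MYC, had 5.57, 4.98 and 4.72 CPM in controls and 114, 119 and 113 with AZD5153. The MYC start region had a change of 2.58 ± 0.06, or 2.27 relative to the window. Most of that is shared with the dense stretch, where regions of other symbols had a median of 2.03, against -0.91 in the rest of the window.

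Of the 8q24 members, 24 could be matched to a tested region in each of the 4 tables with at least 50% reciprocal overlap, whatever symbol the other table gave it. By sign, 4 were lower and 4 higher in all 4 lines in DTP cells, and 7 were lower and 3 higher from DTP to combo. The H1975 signs include the shift of the dense stretch. In PC9, H1975 and HCC2935, 2 were called lower and 2 higher in all 3 lines with osimertinib, and none was called the same way in all 3 from DTP to combo. Of all tested regions 31.7, 51.9 and 37.3% were called with osimertinib in these lines. Agreement among all regions matched in the 4 tables was not counted, so whether these members agree more often than others is not known.

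**Figure D3:**
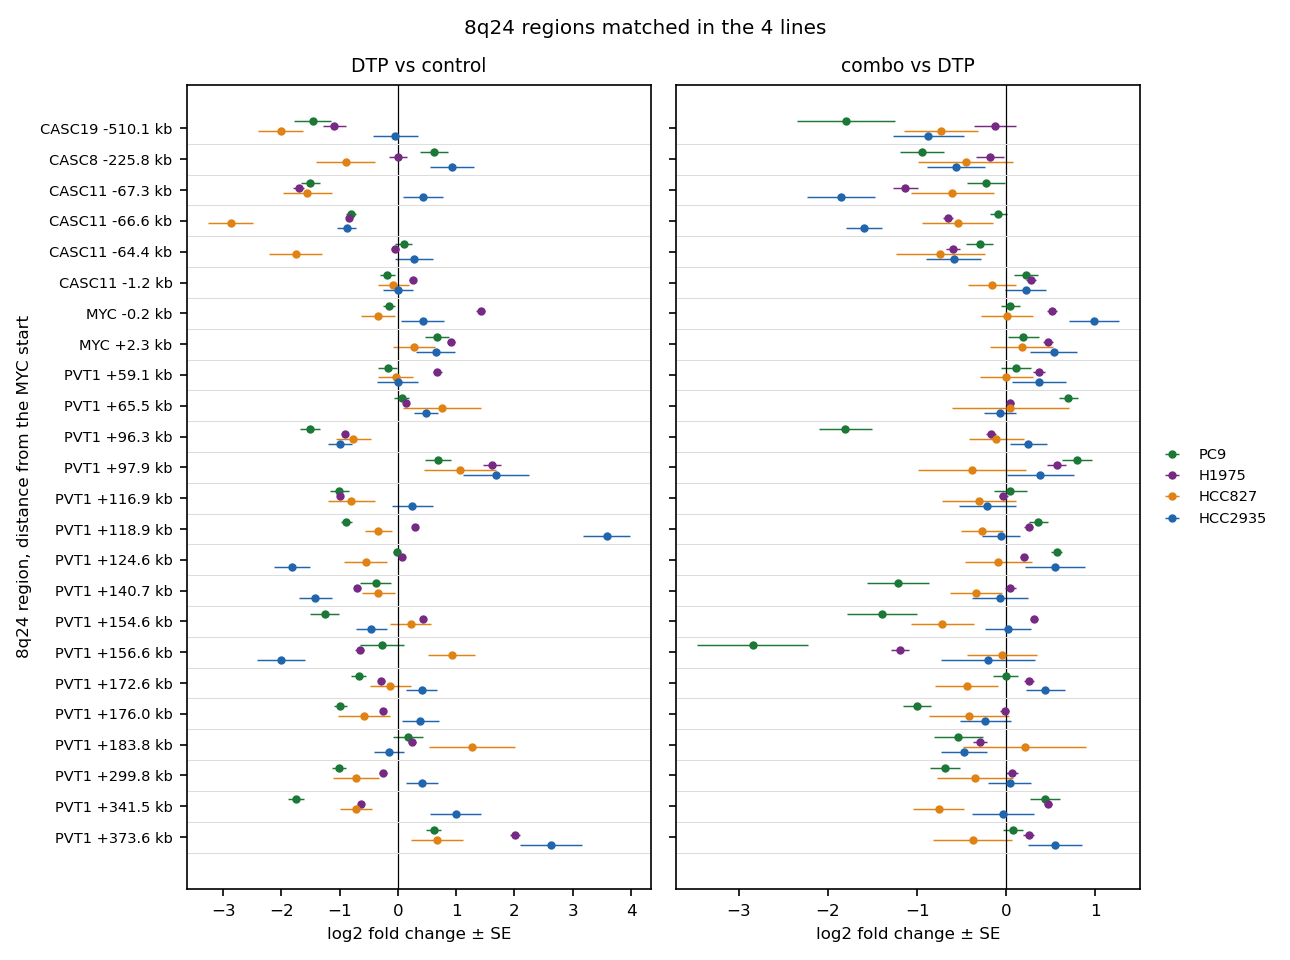
Log2 fold change ± SE of the 24 matched 8q24 regions, named by symbol and distance of the region's centre from the MYC start, for DTP against control and combo against DTP in 4 lines. The CASC11 region at -66.6 kb lies left of 0 in every line for DTP against control, and PVT1 at +97.9 and +373.6 kb lie right of 0.

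The CASC11-assigned region at -66.6 kb was 1 of the 2 sites called lower with osimertinib in PC9, H1975 and HCC2935. It spans 127668615 to 127669116 of chromosome 8 in PC9, an exon in the authors' annotation that lies outside the RefSeq interval of CASC11. Its PC9 values were 68.0, 62.4 and 75.6 CPM in controls and 36.9, 42.3 and 39.3 in DTP, a change of -0.80 ± 0.08. In H1975 it changed by -0.85 ± 0.05, from 270, 262 and 250 CPM to 139, 141 and 153, and in HCC2935 by -0.88 ± 0.17, from 27.5, 23.0 and 27.5 to 17.1, 14.2 and 11.1. HCC827, whose value is a description, went from 109, 101 and 177 CPM to 19.3, 16.8 and 16.7, or -2.87 ± 0.39. From DTP to combo it changed again in H1975, by -0.65 ± 0.05, and in HCC2935, by -1.59 ± 0.20 to 4.28, 5.48 and 4.03 CPM. In PC9 the same step was -0.09 ± 0.10 (adjusted p = 0.545).

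The intronic PVT1 region at 96.3 kb was the other site called lower with osimertinib in PC9, H1975 and HCC2935. It changed by -1.51 ± 0.17 in PC9 and by -0.91 ± 0.05 in H1975, and in HCC2935 it went from 15.9, 18.0 and 14.1 CPM to 6.46, 9.92 and 7.44, with no overlap. The sites called higher, with values in the same order of lines, were an intronic PVT1 region 97.9 kb from MYC, with 0.69 ± 0.22, 1.62 ± 0.16 and 1.68 ± 0.57, and an intronic region at 373.6 kb, beyond the RefSeq end of PVT1, with 0.61 ± 0.13, 2.02 ± 0.09 and 2.62 ± 0.53. The HCC2935 values of the former were 0.655, 0.591 and 0.626 CPM in controls and 1.33, 1.65 and 3.24 in DTP. Those of the latter were 0.218, 0 and 1.88 CPM in controls and 4.37, 2.81 and 4.96 in DTP, so both rises start from very low values. In PC9 the summed test called 2 PVT1 regions higher, against 5 in edgeR. The PVT1 regions at 96.3 and 97.9 kb went opposite ways in the same libraries.

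At other matched sites PC9 and HCC2935 went opposite ways. At the internal PVT1 promoter 118.9 kb from MYC the DTP change was -0.89 ± 0.09 in PC9 and 3.58 ± 0.40 in HCC2935, both called, the latter from 0.437, 0.591 and 0.939 CPM to 8.36, 8.27 and 6.68. H1975 had 0.29 ± 0.05, which is 0.02 relative to the window and -0.16 with the stretch medians removed, and the summed test did not call it (adjusted p = 0.325). The next promoter region, at 124.6 kb, had values of -0.02 ± 0.07 in PC9 and 0.08 ± 0.04 in H1975 that were not called, and a change of -1.81 ± 0.31 in HCC2935. The differences between lines were not tested, since each line was fitted on its own table.

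**Figure D4:**
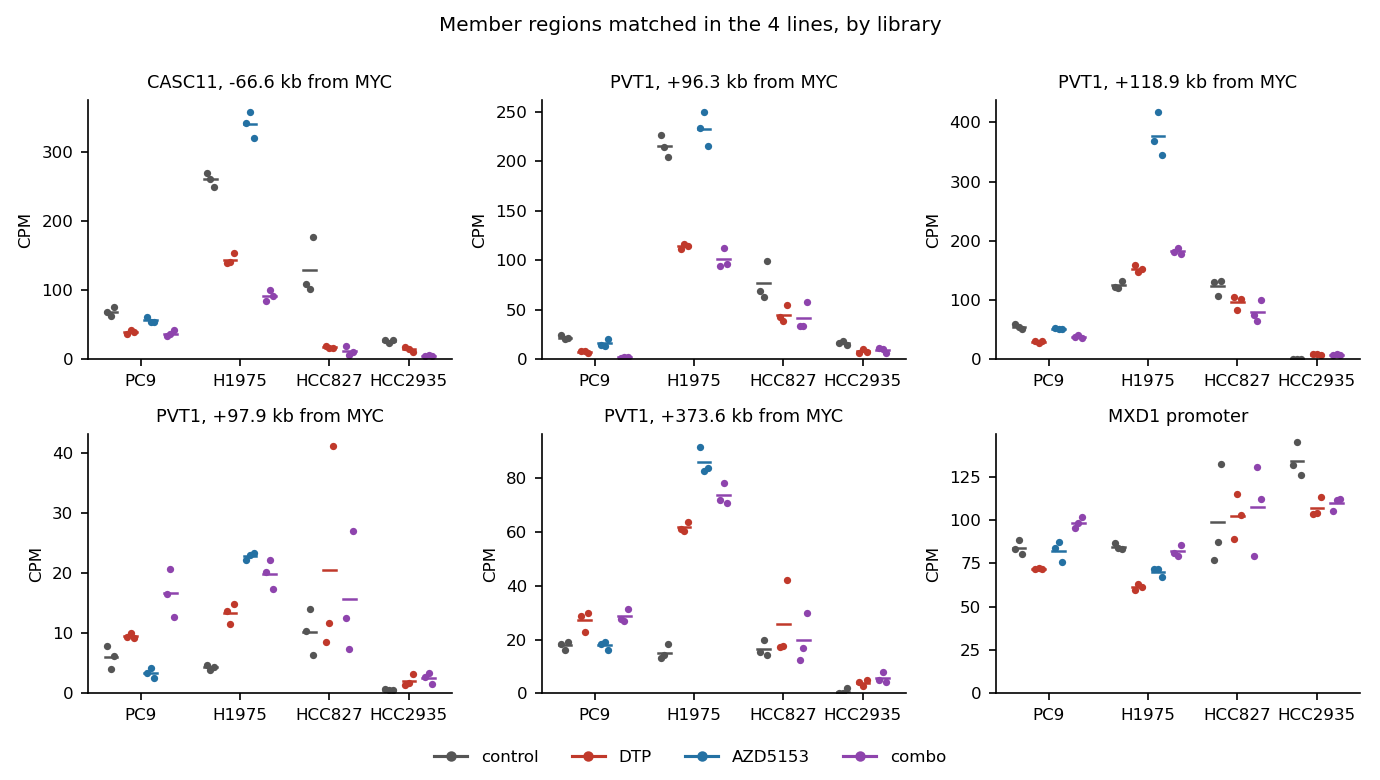
CPM in each library (points) and group means (bars) for 5 matched 8q24 regions, named by distance from the MYC start, and for the MXD1 promoter region, in 4 lines. DTP libraries lie below controls in all 4 lines at -66.6 kb, and at +118.9 kb they lie below controls in PC9 and above them in HCC2935.

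Among the network genes, MYCN was lower with osimertinib. In HCC2935 its start region (chr2, 15940088 to 15940589, covering the sequence shown above) had 11.4, 12.1 and 11.3 CPM in controls, 3.42, 3.97 and 4.01 in DTP and 2.04, 2.16 and 3.62 in combo. All 6 treated libraries lay below all 3 controls, and the DTP change was -1.60 ± 0.25 (adjusted p = 1.33e-06). From DTP to combo the value was -0.57 ± 0.30 (adjusted p = 0.262). The adjacent upstream region changed with osimertinib by -0.71 ± 0.23, from 8.74, 8.56 and 8.76 CPM to 5.32, 5.29 and 5.34. The start region kept its call with the medians of 10 Mb bins removed, at -1.04 (adjusted p = 0.00077). The upstream region lost it, at -0.15 (adjusted p = 0.648), as it did in DESeq2 (adjusted p = 0.0588) and without control replicate 1 or any 1 of the DTP libraries. A peak at the start region was found in 5 of 9 HCC2935 libraries.

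Across the network genes, DTP calls were 1 higher and 4 lower of 19 regions in PC9 and 7 higher and 6 lower of 21 in H1975. HCC827 had none of 9, with 0.0219% of all its regions called. With the replicate block 1 of these 9, a MAX region, was called higher, with 3.88% of all its regions called. HCC2935 had 1 higher and 6 lower of 21. From DTP to combo calls were 2 higher and 1 lower in PC9, 3 higher and 2 lower in H1975, none in HCC827 and 1 lower in HCC2935. AZD5153 alone gave 1 higher and 2 lower in PC9 and 5 higher and 10 lower in H1975, where 58.1% of all regions were called. These genes lie outside 8q24 and were tested there. The other shares of all regions for the same comparisons are given above. Several of these splits turned on the scaling. HCC2935 DTP calls became, with the medians of 10 Mb bins removed, 5 higher and 2 lower, with 31.9% of all regions called. H1975 calls became 2 higher and 3 lower from DTP to combo, with 20.3% called, and 7 higher and 9 lower with AZD5153 alone, with 53.7% called.

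MXD1, a repressor that replaces MYC on MAX during differentiation, had a strong region just upstream of its start. In PC9 it had 83.6, 88.5 and 80.6 CPM in controls, 71.7, 72.4 and 72.1 in DTP and 95.4, 98.1 and 102 in combo. In H1975 it had 87.1, 83.7 and 83.6 CPM in controls, then 59.6, 63.3 and 61.6 in DTP, and 81.3, 79.4 and 85.7 in combo. HCC2935 controls had 132, 145 and 126 CPM, DTP libraries 103, 104 and 113 and combo libraries 105, 112 and 112. In each of these 3 lines all DTP libraries lay below all controls. The fall with osimertinib was called in these 3 lines, at -0.23 ± 0.07, -0.46 ± 0.06 and -0.33 ± 0.08, and the rise from DTP to combo in PC9 and H1975, at 0.45 ± 0.06 and 0.42 ± 0.06. HCC827 had values of 0.05 ± 0.27 and 0.07 ± 0.27. Under the summed test none of the PC9 and H1975 changes was called, with adjusted p = 0.52 and 0.0585 for the falls and 0.193 and 0.251 for the rises. With the medians of 10 Mb bins removed the falls in PC9, at -0.03 (adjusted p = 0.809), and HCC2935, at -0.20 (adjusted p = 0.0953), were no longer called. The H1975 fall remained, at -0.39 (adjusted p = 1.33e-06), as did both rises, at 0.44 and 0.37.

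The intronic MXD1 region 19.2 kb into the gene went with osimertinib from 10.8, 9.13 and 10.4 CPM to 4.62, 5.16 and 4.50 in PC9, a change of -1.08 ± 0.23, and changed by -0.82 ± 0.20 in H1975, while its values in HCC827 and HCC2935 were 0.19 ± 0.64 and 0.18 ± 0.22. With AZD5153 alone it changed by 0.45 ± 0.17 in PC9, not called by the summed test (adjusted p = 0.282) and lost without control replicate 2 or 3 or AZD5153 replicate 2, and by -1.81 ± 0.24 in H1975.

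MXI1, the other MAX partner of that class, had a site in its 3′ untranslated region (chr10, 110286782 to 110287283) with the lowest log2 fold change of the network genes. In H1975 it had 9.28, 9.01 and 9.17 CPM in controls, 0.640, 0.113 and 0.336 in DTP, 0.516, 0.348 and 0.570 with AZD5153 alone and 0.394, 0.374 and 0.225 in combo, the DTP libraries resting on 1 to 5 counts each. The fitted changes were -4.64 ± 0.30 with osimertinib and -4.17 ± 0.30 with AZD5153 alone, and with counts this low their size depends on the fit. HCC2935 had the same region at 12.7, 15.1 and 5.95 CPM in controls, 2.28, 4.14 and 3.63 in DTP and 1.49, 0.577 and 1.61 in combo, a change of -1.75 ± 0.29 and then of -1.52 ± 0.41. The second step was lost in 2 of the fits leaving out 1 library.

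The MXI1 start region, which covers the sequence shown above, had 10.5, 13.9 and 11.2 CPM in PC9 controls, 11.9, 11.1 and 14.3 in DTP and 6.83, 7.95 and 7.73 in combo. Combo libraries lay below all of these others and the change from DTP was -0.73 ± 0.19 (adjusted p = 0.00165, summed test 0.0904). In H1975 the same step was -0.16 ± 0.10 and AZD5153 alone gave -0.53 ± 0.11, with 20.7, 20.3 and 18.5 CPM in controls and 13.7, 13.6 and 13.9 with the drug (summed test adjusted p = 0.043, and -0.29 with the medians of 10 Mb bins removed). A further MXI1 promoter region 2.5 kb downstream of it rose with osimertinib in H1975 by 1.16 ± 0.18.

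MAX, the shared partner of these proteins, kept a strong start region in each line. Its control values were 35.3, 31.7 and 35.0 CPM in PC9 and 54.3, 59.1 and 54.1 in H1975, with DTP changes of 0.20 ± 0.10 and 0.08 ± 0.07 that were not called. In HCC2935 it went from 72.3, 77.4 and 63.5 CPM to 51.9, 62.0 and 56.3, a change of -0.32 ± 0.10 that became 0.06 with the medians of 10 Mb bins removed (adjusted p = 0.703) and was lost on leaving out either of the controls 1 and 2 or either of the DTP libraries 1 and 3. Distal regions upstream of MAX moved more. The region 28.6 kb upstream rose in H1975 DTP cells from 9.74, 11.6 and 9.84 CPM to 26.5, 31.3 and 24.0, by 1.39 ± 0.11, and the region 32.2 kb upstream from 1.86, 2.02 and 2.83 to 17.3, 16.0 and 20.4, by 2.98 ± 0.18. In HCC827 the former had 4.98, 7.63 and 11.4 CPM in controls and 24.4, 28.5 and 46.0 in DTP, with no overlap and a difference of 2.04 ± 0.43, called with the replicate block (adjusted p = 0.000344) and not without it (adjusted p = 0.139). AZD5153 alone took it to 2.19, 1.74 and 3.99 CPM in H1975, a change of -1.90 ± 0.20, and from 8.90, 8.62 and 7.94 to 6.70, 2.78 and 6.10 in PC9, a change of -0.70 ± 0.23 that the summed test did not call (adjusted p = 0.122) and that was lost without AZD5153 replicate 2. H1975 combo libraries had 30.6, 23.7 and 32.4 CPM there.

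MYCL, the paralog known from small cell lung cancer, had small changes at its start region. It had 30.5, 29.7 and 26.3 CPM in PC9 controls and 22.7, 22.3 and 19.5 with AZD5153 alone, a change of -0.42 ± 0.12 that the summed test did not call (adjusted p = 0.287) and that was lost without AZD5153 replicate 3. In H1975 it rose with osimertinib from 10.4, 8.61 and 9.98 to 14.1, 13.6 and 12.3 CPM, by 0.47 ± 0.13 (summed test adjusted p = 0.133). The distal region 8.3 kb past the start rose with osimertinib in H1975 by 1.62 ± 0.39 and in HCC2935 by 2.36 ± 0.51, and had values of 0.44 ± 0.26 in PC9 and 1.57 ± 0.82 in HCC827. A neighbouring MYCL region of HCC2935, 8.9 kb past the start, went from 1.09, 2.36 and 0.626 CPM to 5.13, 5.95 and 5.53, a change of 2.02 ± 0.37.

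**Figure D5:**
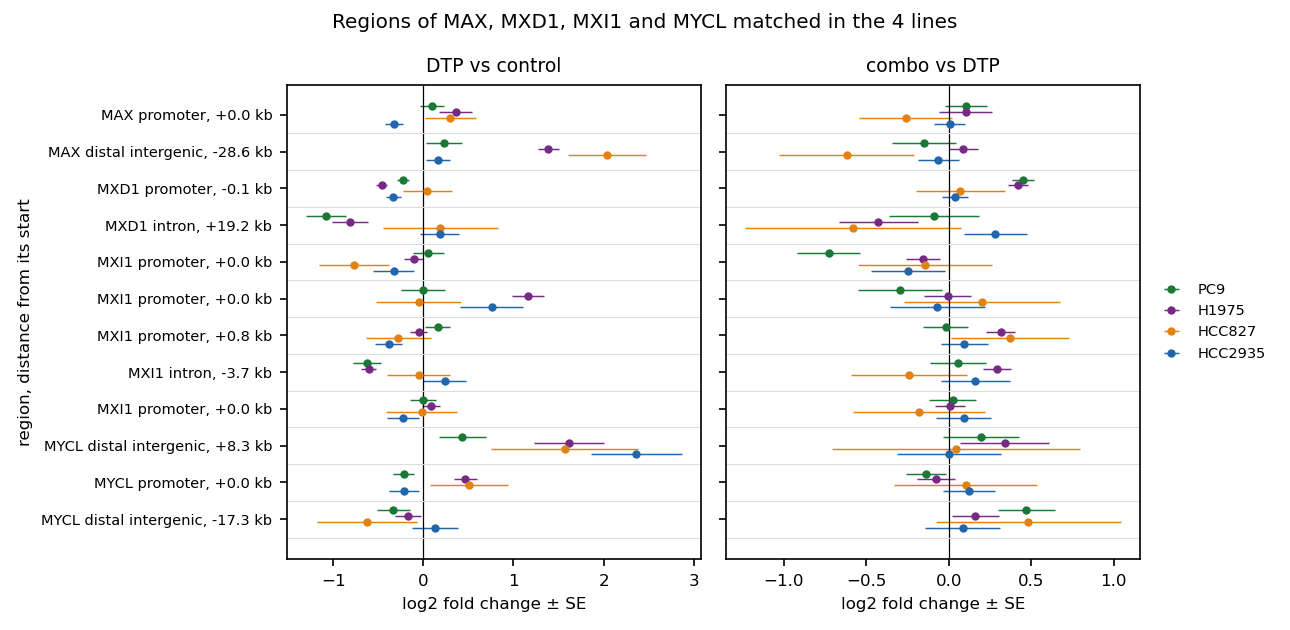
Log2 fold change ± SE of the 12 regions of MAX, MXD1, MXI1 and MYCL matched in the 4 lines, for DTP against control and combo against DTP. The MAX region 28.6 kb upstream and the MYCL region 8.3 kb past the start lie right of 0 in all 4 lines for DTP against control, and the MXD1 promoter lies left of 0 in PC9, H1975 and HCC2935.

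Start regions of other genes of the pathway were read from 3 gene lists. Calls and changes in these lists are from edgeR alone. The summed test is not given for them, and it left many small member changes in PC9 and H1975 uncalled, those of MXD1 above among them. Of MXD3, MXD4, MNT, MGA, MLX, MLXIP and MLXIPL, 0 of 7 rose and 1 fell in PC9 DTP cells, 0 rose and 3 fell in H1975, where MLXIPL changed by -0.47 ± 0.09, and 1 rose in HCC2935. Start regions of all genes were called higher in 15.06, 26.8 and 21.2% and lower in 10.95, 23.1 and 11.9% in these lines. From DTP to combo MXD4, a repressor of the MXD class, rose in PC9 by 0.21 ± 0.06 and in H1975 by 0.32 ± 0.07, and MNT, a MAX-binding repressor, changed in PC9 by -0.73 ± 0.13. AZD5153 alone gave 1 higher and 2 lower in PC9 and 4 higher and 1 lower in H1975, and HCC827 had none called. Over all start regions 10.3% were called higher and 12.3% lower in PC9 with AZD5153 alone, and 43.9 and 24.4% in H1975.

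Of 25 MYC target genes, 23 had a tested start region in PC9, H1975 and HCC2935 and 21 in HCC827. With osimertinib 3 rose and 2 fell in PC9, 2 rose and 6 fell in H1975 and 5 rose and 1 fell in HCC2935, where start regions of all genes were called higher in 15.06, 26.8 and 21.2% and lower in 10.95, 23.1 and 11.9%. The H1975 falls included DKC1, the dyskerin of ribosomal RNA modification, at -0.40 ± 0.08, and NCL, nucleolin, at -0.30 ± 0.08. From DTP to combo 9 rose and none fell in PC9 and 11 rose and none fell in H1975, against 17.2 and 28.1% of all start regions called higher. Median changes of the list in that comparison were 0.24 and 0.26, with 0.08 and 0.16 over all start regions. HSPD1, a mitochondrial chaperone, rose in PC9 by 0.51 ± 0.09, in H1975 by 0.32 ± 0.07 and in HCC2935 by 0.31 ± 0.10. AZD5153 alone gave 1 higher and 2 lower in PC9 and 15 higher and 1 lower in H1975, where 43.9% of all start regions were called higher and 24.4% lower and TERT, telomerase reverse transcriptase, rose by 2.64 ± 0.28. In HCC827 none of the 21 was called by edgeR, nor was any of its 13849 start regions.

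Of 19 genes beside MYC on 8q24, 13 had a start region in H1975. Their median change with AZD5153 alone was -0.01, against 0.20 over all start regions. This is a description, since the shift of this locus in that comparison was known when the genes were chosen. CCAT1 and CASC21, inside the dense stretch, had changes of 3.18 ± 0.35 and 1.51 ± 0.09, while GSDMC, further along the chromosome, had -2.37 ± 0.42. In PC9 the CCAT1 start region had a change of -3.42 ± 0.34 with AZD5153 alone.

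Start regions whose changes most resembled those of the MYC start region were sought among 10148 genes, over 10 fold changes against the control of the same line. The closest were NUDT12 with a Pearson r of 0.987, HIVEP1 with 0.979, ATXN1 with 0.975, JMJD1C-AS1 with 0.974 and ARMCX6 with 0.973. The 10 fold changes share control libraries, and the MYC values of largest size among them are the H1975 ones, at 1.42, 2.58 and 1.93.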

How the data were processed

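Chromatin accessibility was measured in 42 libraries of 4 cell lines, 3 per group. Per the labels' processing notes the authors used BWA 0.7.17, SAMtools 1.9, MACS2 2.2.6, featureCounts 2.0.0, ChIPseeker 1.29.1 and deepTools 3.4 on hg38. The deposited tables hold raw read counts per region, 1 table per line, and a deposited annotated subset gives each region's gene. The deposited peak files, called per library, give −log10 q-values, which were used only to say whether a peak overlapped a region.

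Counts of each line were fitted whole with edgeR 4.0.16 in R 4.3.3 (filterByExpr, TMM, quasi-likelihood test, all groups of the line together), with Benjamini-Hochberg adjustment over all tested regions of the table and calls at 0.05. The SE was the log2 fold change divided by the square root of F. CPM used TMM library sizes. Tests of levels across lines were not made, since the tables were normalised separately. Alternatives were DESeq2 1.42.0, its size factors, no filter, regional medians of 10 Mb bins removed, the replicate number as a block, libraries summed with the HCC2935 dispersion, leaving out each library, and, chosen after seeing the data, the medians of the dense 8q24 stretch removed. For the regional medians the 15 Mb window around MYC was taken as 1 bin in place of 10 Mb bins. Same-numbered HCC827 libraries deviated together (correlations 0.257 to 0.827) and were taken as pairs in the fit with the replicate block, while the main fit had no block. In the other lines the correlations were -0.00980 to 0.0126 (PC9), -0.0624 to 0.0152 (H1975) and -0.0740 to 0.206 (HCC2935). Named regions were the start region of each gene (within 1000 bases; of several at distance 0, the one centred nearest the RefSeq start, a rule added afterwards), up to 2 rises and 2 falls of largest size per comparison among called, non-overlapping regions above the median count, and regions matched in all 4 tables; regions outside this rule were named after their values were seen. Likeness was Pearson's r of log2 fold changes outside the 8q24 window. On simulated data with true log2 changes of 1, the DTP comparison recovered 80, 78, 0 and 54% of 100 changed regions in PC9, H1975, HCC827 and HCC2935 (126506, 191202, 82309 and 154179 regions). The members and lists were chosen with earlier results of these data known.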

Additional observations from a re-analysis of the deposited data

Results flagged for a closer look

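Listed here are 11 regions of PC9 and H1975 whose change from DTP to combo differed from their change with AZD5153 in untreated cells. The difference was tested as an interaction in edgeR's quasi-likelihood fit, with adjusted p-values over all regions of the line. A call was the condition for listing, so the length of the list is no result. In PC9 the difference was called for 17 of 70 member regions, with 13.8% of all regions called. In H1975 it was called for 13 of 21 network-gene regions, with 42.5% of all regions called. The change from DTP to combo is given first, and the difference is the first change minus the second.

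In PC9 the PVT1 region starting at 128088508 had changes of -0.30 and -2.21, a difference of 1.91 (adjusted p = 1.19e-06, summed test 0.00172). PVT1 at 127833122 had 0.80 and -0.81, differing by 1.61 (adjusted p = 3.90e-05, summed test 0.0103). PVT1 at 127899176 had -1.13 and 0.76, differing by -1.88 (adjusted p = 5.03e-05, summed test 0.00563). CASC8 at 127509356 had -0.95 and 0.59, differing by -1.54 (adjusted p = 0.000225, summed test 0.0199). MXD1 at 69914455 had 0.45 and -0.03, differing by 0.48 (adjusted p = 1.05e-05, summed test 0.49).

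In H1975 the MXD1 region starting at 69914421 had changes of 0.42 and -0.28, a difference of 0.69 (adjusted p = 4.77e-13, summed test 0.0542). MXI1 at 110207303 had -0.16 and -0.53, differing by 0.37 (adjusted p = 0.039, summed test 0.386). MXI1 at 110286782 had -0.11 and -4.17, differing by 4.06 (adjusted p = 3.41e-05, summed test 8.12e-05). Its DTP libraries already held very few counts, as described above, and whether this bears on the difference was not tested. MXI1 at 110172125 had -0.87 and -3.04, differing by 2.17 (adjusted p = 0.000175, summed test 0.0011). MXI1 at 110227205 had -0.21 and 1.15, differing by -1.36 (adjusted p = 9.42e-05, summed test 0.0078). MXI1 at 110209846 had -0.01 and 0.71, differing by -0.72 (adjusted p = 0.012, summed test 0.154). With the medians of 10 Mb bins removed the H1975 differences at MXD1 at 69914421 and MXI1 at 110207303 were 0.11 (adjusted p = 0.42) and 0.07 (adjusted p = 0.755) and no longer called, the AZD5153 change of the former turning to 0.27, while the others kept their sign and call. In DESeq2 MXI1 at 110207303 (adjusted p = 0.16) and MXI1 at 110209846 (adjusted p = 0.0642) were not called.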

How the results depend on the processing

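Member regions called are counted in both directions together. From DTP to combo PC9 had 27 of 70, with 22.3% of all regions called, and 11 under the summed test, with 8.11% called. H1975 had 97 of 541, with 21.0% of all regions called, 59 in DESeq2, and 17 under the summed test, with 5.97% called. For AZD5153 alone PC9 had 26, with 25.8% of all regions called, 12 in DESeq2 and 12 under the summed test. For the difference of effects PC9 had 17, with 13.8% called, 10 in DESeq2, and 6 under the summed test, with 4.81% called. Shares of all regions are not given for these DESeq2 counts or for AZD5153 alone under the summed test. Those counts show only how many calls remained. With the medians of the dense stretch removed, H1975 had 282 for AZD5153 alone, with 57.7% of all regions called. For the difference of effects it had 201, with 42.1% called. Without that removal the counts were 520 and 508, with 58.1 and 42.5% of all regions called. The 8q24 members in these counts, and in the HCC827 DTP counts that follow, are descriptions. In HCC827 DTP cells 1 member was called, with 0.0219% of all regions called, and 0 after removing regional medians. There were 5 in DESeq2 (0.527% of all regions called) and 11 with the replicate block (3.88%). Leaving out a library gave 0 to 1, 1 only without DTP replicate 3. In the other lines the block moved no count past 1.5 times. Same-numbered libraries there hardly deviated together, apart from DTP and combo libraries of HCC2935, with correlations of 0.0953 to 0.206. The change of 8q24 members relative to a narrower window of 5 Mb was -0.000758 in PC9 DTP cells (-0.15 with the wider window), and in H1975 0.0777 for DTP (0.26), 0.32 for AZD5153 alone (1.76) and -0.46 for the difference of effects (-1.66). Leaving out a library gave -0.10 to 0.0463, 1.53 to 1.85 and -1.75 to -1.50 for the H1975 step to combo, AZD5153 alone and the difference of effects. Of 198 called changes at single member regions, 43 lost their call in DESeq2, 81 of 179 under the summed test, 33 without the filter, 17 with regional medians removed, 1 with the size factors of DESeq2 and 1 with the replicate block, and 149 of 1362 fits leaving out a library lost one. Regional medians removed turned 3: MXD1 at 69914421 in H1975 with AZD5153 alone (0.27), PVT1 at 127800693 in H1975 DTP cells (-0.0348) and MAX at 65102332 in HCC2935 DTP cells (0.0603). Stretch medians removed turned 6 in H1975 DTP cells: CASC11 at 127733956 (-0.19), MYC at 127736011 (-0.25) and PVT1 at 127800693 (-0.30), 127854116 (-0.16), 127889951 (-0.0260) and 127919015 (-0.21). The causes were not tested. HCC827 had the lowest simulated recovery, 17% at a true log2 change of 2, and both the shallowest libraries and a wide spread between them; the parts of depth and spread were not separated.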
